A study of Homo sapiens with 4 samples.

Results

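Chromosome 20 was described through every enriched region that chromatin immunoprecipitation with sequencing (ChIP-seq) placed on it in MCF10A, a non-tumour human mammary epithelial cell line. Chromosome 20 was picked with earlier results of these data known, so its ranks among the autosomes are descriptive. Its regions were chosen by chromosome alone, from the positions in the called lists, and numbered 3759 of 128734 on chromosomes 1 to 22 and X. They comprised 312 of 11604 regions of 53BP1, 1957 of 62530 regions of RNA polymerase II phosphorylated on serine 5 (S5p) and 1490 of 54600 regions of polymerase phosphorylated on serine 2 (S2p). Regions starting at 29.4 Mb or beyond were assigned to the long arm and those starting below 26.3 Mb to the short arm, in hg19, and 0 regions lay between these limits. The long arm held 209 regions of 53BP1, 1358 of S5p and 1046 of S2p, and the short arm held 103, 599 and 444. All cells were unmodified and grown under normal conditions. The series had 4 libraries, 1 for each antibody and an input, and the input was not analysed here. With 1 library per antibody there was no spread between replicates and no test was made. Shares carry exact Clopper-Pearson 95% intervals that cover counting error only, with regions taken as independent, although neighbouring regions can share a transcription unit. Read depth was unknown, so the number of regions does not compare one antibody with another.

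RNA polymerase II carries serine 5 phosphorylation on its C-terminal repeats around promoter escape and early elongation, and serine 2 phosphorylation accumulates as it elongates through the gene body. 53BP1 is best known for its part in the repair of DNA double-strand breaks, where it favours end joining, and it was first found as a partner of p53. The title of the series places it in transcription driven by the p53 family. Chromosome 20 is gene-rich for its size, and its long arm is among the chromosome arms often gained in breast tumours and in cultured epithelial lines. Genes listed on chromosome 20 by RefSeq include PCNA, the sliding clamp of DNA replication, JAG1, a Notch ligand, BCL2L1, an inhibitor of apoptosis, TOP1, a DNA topoisomerase, and AURKA, a mitotic kinase. No hg19 gene annotation was used, so no region below is assigned to a gene and no sequence is shown. The files hold no measure of DNA copy number.

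Both arms carried polymerase along their length, with the long arm more densely occupied. The long arm had 41.4 S5p regions per Mb between its first and last S5p region, a span of 32.8 Mb, and the short arm had 23.5 over 25.5 Mb. S5p regions covered 9.67% of that span on the long arm and 5.56% on the short arm. S2p regions numbered 31.9 per Mb on the long arm and 17.4 on the short arm, and 53BP1 regions 6.37 per Mb on the long arm and 4.05 on the short arm. As a ratio, the 53BP1 density differed less between the arms than that of either polymerase form. No interval was set on these densities, so that contrast is descriptive. The median gap between neighbouring S5p regions was 1897 bp on the long arm and 2452 bp on the short arm. The longest stretch without an S5p region ran over 1.96 Mb of the long arm, at chr20:52840013-54795116, and over 1.05 Mb of the short arm, at chr20:8000763-9048313. No region of 53BP1 or S2p lay wholly within either stretch, and the regions that entered them were the ends of an S2p region on the long arm and a 53BP1 region on the short arm.

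Set against the number of genes, chromosome 20 was ordinary for 53BP1 and S2p and towards the high end for S5p. RefSeq lists 537 protein-coding genes on it. There were 58.1 regions of 53BP1 per 100 such genes on chromosome 20, against 59.5 on the other 21 autosomes, which placed it 14th from the highest of 22. S2p had 277 regions per 100 genes on chromosome 20 and 279 on the other autosomes, which placed it 13th. S5p had 364 regions per 100 genes on chromosome 20 and 319 on the other autosomes, which placed it 5th. Chromosome 20 had the most S5p regions per S2p region of all 22 autosomes, at 1.31, with 1.30 on the long arm and 1.35 on the short arm. The other autosomes together had 1.14 and singly lay between 1.06, on chromosome 4, and 1.22, on chromosome 9. Counted in bases, chromosome 20 had 0.923 S5p bases per S2p base, also the highest of the 22, against 0.830 on the other autosomes.

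The regions themselves were of usual size. The median 53BP1 region was 567 bp wide on chromosome 20 and 563 bp on the other autosomes, and the median deposited fold enrichment, the authors' ratio over background, was 6.04 in both. The median S5p region was 1016 bp wide on chromosome 20, the 4th widest of 22, against 966 bp on the other autosomes. S5p regions of 5 kb or more made up 9.81% on chromosome 20 (192 regions) and 8.07% on the other autosomes. The median S5p fold was 3.83 on chromosome 20 and 3.76 on the other autosomes. The median S2p region was 1152 bp wide with a fold of 3.55 on chromosome 20, and 1098 bp wide with a fold of 3.58 on the other autosomes. Wide S5p regions meet 53BP1 more often than narrow ones, so chromosome 20 was compared with the other autosomes at like width.

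Nearly all 53BP1 on chromosome 20 lay on serine 5 polymerase. Of the 312 53BP1 regions, 301 met an S5p region by at least 1 bp, or 96.5% (interval 93.8 to 98.2), against 97.6% on the other autosomes. The share was 97.6% on the long arm (204 of 209, interval 94.5 to 99.2) and 94.2% on the short arm (97 of 103, interval 87.8 to 97.8). S2p met 242 of the 312, or 77.6% (interval 72.5 to 82.1), against 79.0% on the other autosomes. Seen from 53BP1, chromosome 20 was therefore close to the rest of the genome. By combination, 241 of its 53BP1 regions met both polymerase forms, 60 met S5p alone, 1 met S2p alone and 10 met neither. Those on both forms had a median width of 642 bp and a median 53BP1 fold of 6.42, and those on S5p alone a median width of 390.0 bp and a fold of 4.70.

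Seen from S5p regions, though not clearly from S2p regions, 53BP1 was sparse on chromosome 20. Of its 1957 S5p regions, 252 met 53BP1, or 12.9% (interval 11.4 to 14.4), against 15.3% on the other autosomes. That was the lowest share of the 22 autosomes, just under the 12.9% of chromosome 13, and the highest was 19.2% on chromosome 19. The long arm had 11.9% (162 of 1358, interval 10.3 to 13.8) and the short arm 15.0% (90 of 599, interval 12.3 to 18.1). The whole-chromosome interval lay below the share of the other autosomes, as did that of the long arm, whereas the interval of the short arm included it. S2p regions met 53BP1 in 13.3% of cases on chromosome 20 (198 of 1490, interval 11.6 to 15.1), against 14.0% on the other autosomes, a value inside that interval. At like S2p width the difference was -1.02 percentage points, the 7th lowest of 22, with -2.29 on the long arm and 1.98 on the short arm. As a ratio of counts, chromosome 20 had 6.27 S5p regions per 53BP1 region, against 5.36 on the other autosomes. That was the 5th highest of 22, and the highest was 6.53 on chromosome 2. Per 100 protein-coding genes, chromosome 20 had 58.1 regions of 53BP1 against 59.5 on the other autosomes, and 364 of S5p against 319. The part of the higher S5p count in the low share was not tested.

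The difference grew when S5p width was taken into account. Other autosomes reweighted to the widths found on chromosome 20 had 53BP1 on 16.3% of S5p regions, which made the difference for chromosome 20 -3.38 percentage points. The same difference for each other autosome ran between -2.03, on chromosome 22, and 3.85, on chromosome 6, which left chromosome 20 the lowest of the 22. At the rates of the other autosomes, 318 S5p regions of chromosome 20 would have met 53BP1, 66.2 more than the 252 that did. The long arm accounted for 56.5 of these and the short arm for 9.67. The 3 autosomes nearest to chromosome 20 in median S5p width, chromosomes 16, 11 and 12, had like-width differences of -1.21, -0.485 and -0.326.

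**Figure D1:**
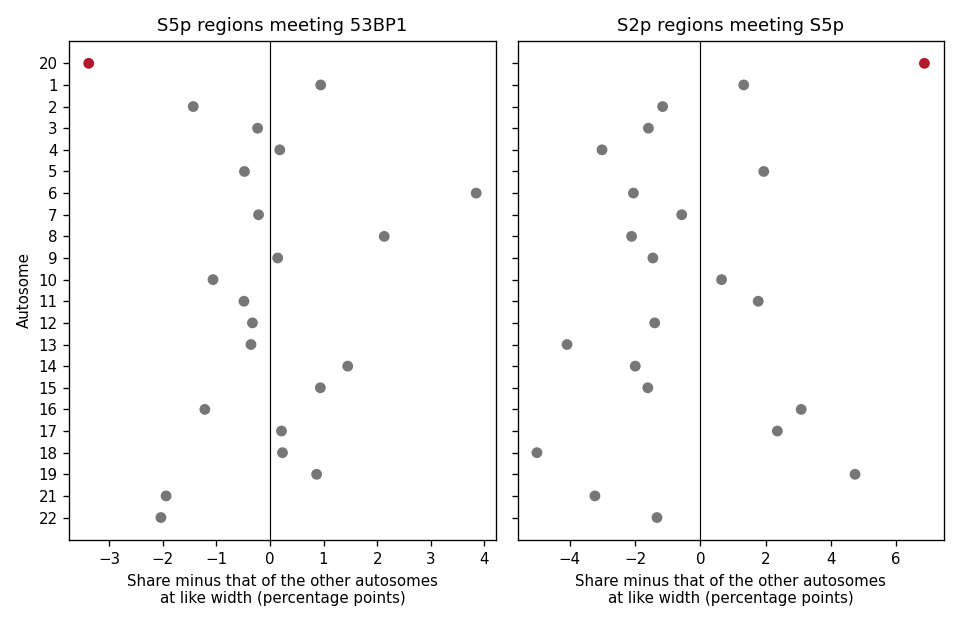
Difference in percentage points between each autosome and the other autosomes at like region width, for the share of S5p regions that met 53BP1 (left panel) and the share of S2p regions that met S5p (right panel). Each point is 1 autosome and chromosome 20 (red) is in the top row. It lies at -3.38 in the left panel, below all others, and at 6.86 in the right panel, above all others.

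The shortfall lay among S5p regions of intermediate width. In the class of 1000 bp to under 2000 bp, 50 of 466 regions on chromosome 20 met 53BP1, or 10.7% (interval 8.07 to 13.9), against 19.2% on the other autosomes. The other autosomes taken singly lay between 16.0% and 23.4% in this class, all above chromosome 20. Both arms were under that range, with 9.21% on the long arm (interval 6.21 to 13.0) and 13.6% on the short arm (interval 8.71 to 19.8), although the interval of the short arm reached into it. In the class of 2000 bp to under 5000 bp, 86 of 340 regions met 53BP1 on chromosome 20, or 25.3% (interval 20.8 to 30.3), against 32.2% on the other autosomes. There the arms differed, with 22.2% on the long arm (53 of 239, interval 17.1 to 28.0) and 32.7% on the short arm (33 of 101, interval 23.7 to 42.7). These classes held 39.7 and 23.6 of the 66.2 regions short of the other autosomes' rates.

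Narrower and wider S5p regions were much like those elsewhere. Below 500 bp, 1 of 334 regions on chromosome 20 met 53BP1, or 0.299%, against 0.535% on the other autosomes. Between 500 bp and 1 kb the share was 3.04% on chromosome 20 and 3.25% on the other autosomes. The widest regions held 53BP1 most often in both. Between 5 and 10 kb it was 40.3% on chromosome 20 (interval 31.6 to 49.5) and 40.5% on the other autosomes. At 10000 bp or more it was 67.6% on chromosome 20 (46 of 68, interval 55.2 to 78.5) and 68.5% on the other autosomes.

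**Figure D2:**
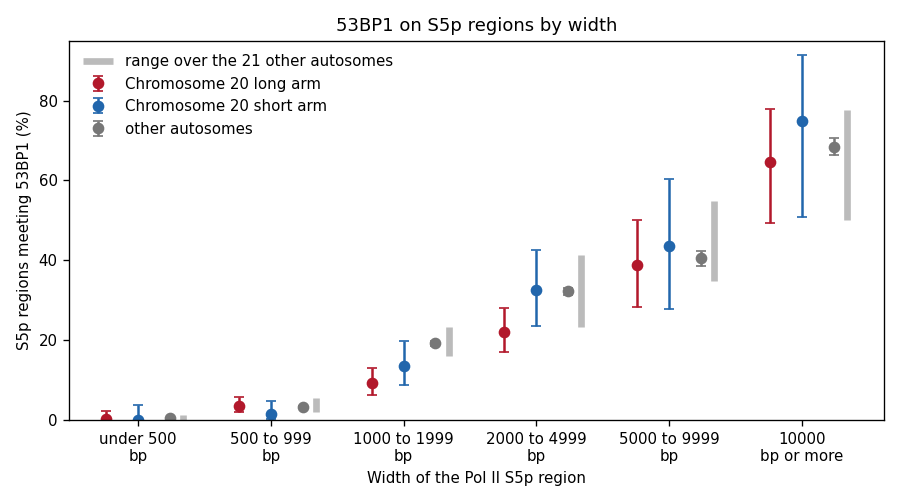
Share of S5p regions that met a 53BP1 region (vertical axis, percent) in 6 classes of S5p width (horizontal axis), for the long arm and the short arm of chromosome 20 and for the other autosomes together. Bars are exact 95% intervals and grey bands the range over the 21 other autosomes. At 1000 bp to under 2000 bp the long arm stands at 9.21% and the short arm at 13.6%, against 19.2% on the other autosomes.

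S5p strength was lower on chromosome 20 in the width classes that held most of the shortfall, but not in the others. The S5p regions of 1000 bp to under 2000 bp had a median fold of 3.94 on chromosome 20 and 4.21 on the other autosomes. Those of 2000 bp to under 5000 bp had 5.53 on chromosome 20 and 6.13 on the other autosomes. In every other width class the median was higher on chromosome 20. It was 10.7 against 9.97 between 5 and 10 kb, and 33.6 against 32.0 at 10000 bp or more. Over all widths, the S5p fold of chromosome 20 at like width was 0.974 times that of the other autosomes, the 6th lowest of 22. When regions were matched on S5p fold in place of width, the difference in 53BP1 share was -1.81 percentage points, and with fold and width matched together it was -1.59. Chromosome 20 was still the lowest of the 22 autosomes in both, since the others ran between -0.869 and 1.95 at like fold and between -0.873 and 1.88 at like fold and width. The difference was thus smaller with fold matched, and the part of S5p strength in it was not tested.

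Ranked by fold, the shortfall lay just under the strongest S5p regions. All S5p regions of the autosomes were ordered by fold into 20 equal classes. In the class with folds of 13.4 to 23.7, 40 of 81 regions on chromosome 20 met 53BP1, or 49.4% (interval 38.1 to 60.7), against 68.0% on the other autosomes. Singly the other autosomes lay between 57.0% and 81.3%, so chromosome 20 was the lowest, with 48.2% on the long arm (27 of 56) and 52.0% on the short arm (13 of 25). The class below it, with folds of 8.40 to 13.4, had 20.5% on chromosome 20 (interval 13.5 to 29.2) and 26.9% on the other autosomes. In the strongest class, above a fold of 38.8, nearly every region held 53BP1, with 102 of 103 on chromosome 20 (99.0%) and 98.9% on the other autosomes. The 53 strongest S5p regions of the long arm and the 51 strongest of the short arm all met 53BP1. Among S5p regions in the strongest 20% of the whole list, 242 of 378 on chromosome 20 met 53BP1 (64.0%), against 72.2% on the other autosomes.

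**Figure D3:**
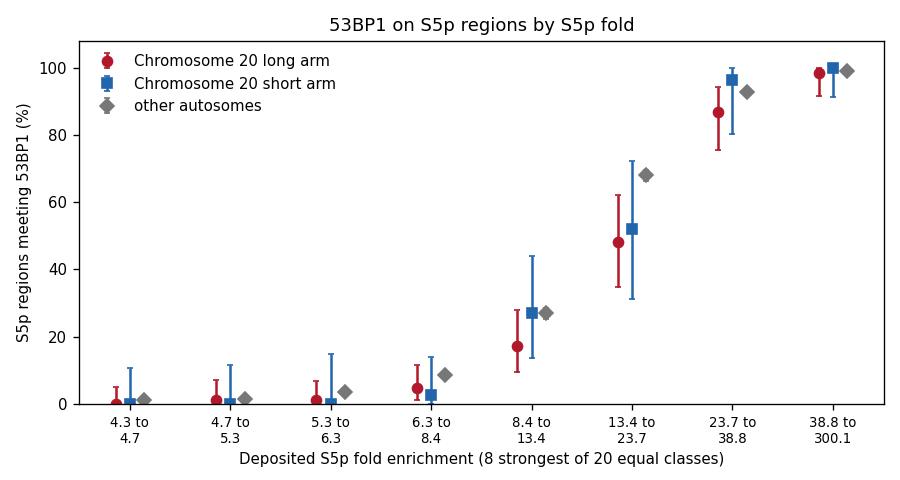
Share of S5p regions that met 53BP1 (vertical axis, percent) in the 8 strongest of 20 equal classes of deposited S5p fold (horizontal axis), for both arms of chromosome 20 and for the other autosomes. Bars are exact 95% intervals. The largest gap is at folds of 13.4 to 23.7, where the long arm has 48.2% and the short arm 52.0%, against 68.0% on the other autosomes.

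The contrast between the arms depended on what was matched. At like width the difference in 53BP1 share, long arm minus short arm, was -2.77 percentage points. With S5p fold matched instead, the difference was -0.929, and with fold and width matched it was -0.00945. The last value rests on 1336 of the 1358 long-arm S5p regions, since 22 had no short-arm region of like fold and width. Each arm was also set against the other autosomes. The long arm differed from them by -4.16 points at like width and -1.78 at like fold and width, and the short arm by -1.62 and -1.14. Both arms therefore lay below the other autosomes in either form, but not always beyond counting error. The short-arm interval of 12.3 to 18.1 included the reweighted shares of the other autosomes, 16.6% at like width and 16.2% at like fold and width. The long-arm interval of 10.3 to 13.8 left out 16.1% at like width and included 13.7% at like fold and width. The long arm lay further below than the short arm in both forms, although the arms matched directly on fold and width hardly differed.

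The chromosome 20 value did not come from a single stretch. In consecutive stretches of 10 Mb counted from the short-arm end, the like-width difference in 53BP1 share was -1.60, -2.14, -0.769, -4.90, -2.57, -3.82 and -6.00 points. All 7 were below 0, and the stretch beyond 60 Mb, with 164 S5p regions, had the lowest difference, although its 53BP1 share of 15.9% was above that of the whole chromosome. Only in 30 to 40 Mb did the interval of the share, 8.44 to 13.7, leave out the reweighted share of the other autosomes, 15.8%. Beyond 60 Mb that reweighted share, 21.9%, lay inside the interval of 10.6 to 22.4. At like fold these differences were -0.908, -0.744, -2.25, -1.74, -3.71, 0.293 and -2.63. The stretch of 50 to 60 Mb alone changed sign when fold was matched.

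Where 53BP1 was present on chromosome 20, its strength followed that of S5p. Across the 301 53BP1 regions on S5p, the rank correlation of the 53BP1 fold with the fold of the strongest S5p region met was 0.443, against 0.417 on the other autosomes. It was 0.333 on the long arm (204 regions) and 0.671 on the short arm (97 regions). The correlation with S2p fold was 0.0586 over 242 regions of chromosome 20, against 0.0625 on the other autosomes. By arm it was 0.0126 on the long arm (161 regions) and 0.252 on the short arm (81 regions). These correlations run across regions, which are not replicates, and several 53BP1 regions can share 1 S5p region. At like S5p fold the 53BP1 fold of occupied S5p regions on chromosome 20 was 0.977 times that of the other autosomes, within the range of 0.956 to 1.04 over single autosomes. Occupied regions on chromosome 20 thus had 53BP1 folds of ordinary size.

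**Figure D4:**
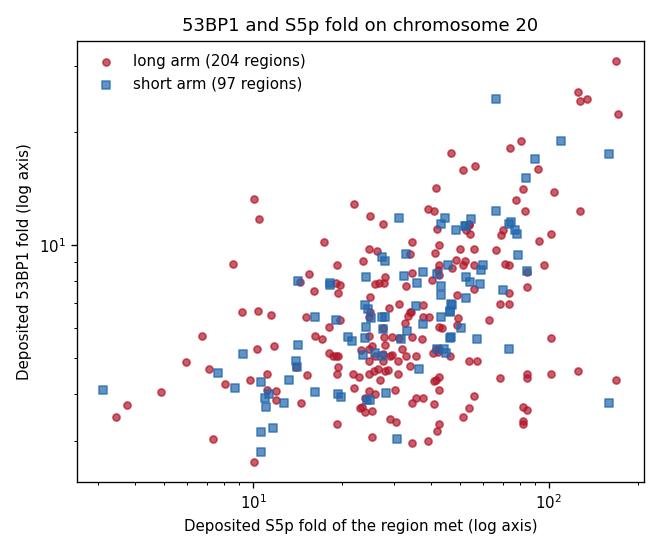
Deposited 53BP1 fold (vertical log axis) against the fold of the strongest S5p region met (horizontal log axis) for the 301 53BP1 regions of chromosome 20 on S5p, with circles for the long arm and squares for the short arm. The rank correlation is 0.333 on the long arm and 0.671 on the short arm, and columns of circles at 1 S5p fold are several 53BP1 regions on 1 S5p region.

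The summits of 53BP1 and S5p were close together. For 300 53BP1 regions whose summit fell inside the strongest S5p region they met, the median distance between the summits was 87 bp on chromosome 20 (quartiles 26.8 and 323), against 78 bp on the other autosomes. The median was 92 bp on the long arm and 83 bp on the short arm. Summits of S2p were farther away, at a median of 209 bp on chromosome 20 (231 regions) and 179 bp on the other autosomes. S5p regions with more than 1 53BP1 region made up 12.7% of the occupied ones on chromosome 20 (32 of 252, interval 8.85 to 17.5), against 12.6% on the other autosomes. Of these, 25 were on the long arm, out of 162 occupied regions, and 7 on the short arm, out of 90.

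The strongest 53BP1 regions of the long arm lay on its strongest S5p regions. The largest 53BP1 fold on chromosome 20 was 31.0, at chr20:47894296-47895808, within an S5p region 19540 bp wide with a fold of 169 and an S2p region with a fold of 89.0. The next were chr20:48807068-48808105 with a 53BP1 fold of 25.6 on an S5p region of fold 126, and chr20:43976657-43977286 with 24.6 on an S5p region of fold 134. They were followed by chr20:30192070-30193629 with 24.1 on an S5p region of fold 127, and by chr20:42086055-42086997 with 22.4 on an S5p region of fold 171. The 5 S5p regions of largest fold on the long arm were the ones met by these 5 53BP1 regions, in another order. The summits of 53BP1 and S5p lay 7 to 24 bp apart at the 5 sites. S2p differed more among them, with folds of 24.4 at the last of them and 101 at chr20:30192070-30193629.

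On the short arm 4 of the 5 strongest 53BP1 regions lay on S5p regions that were among the 5 strongest of that arm. The exception was the strongest, chr20:1305654-1306495, with a 53BP1 fold of 24.5 on an S5p region of fold 66.1, whose summits were 202 bp apart. chr20:10654274-10655844 had a 53BP1 fold of 18.9 on an S5p region of fold 110.1 that was 42821 bp wide. chr20:2632559-2633670 had a 53BP1 fold of 17.4 on the strongest S5p region of the arm, of fold 159. At chr20:5986259-5987172 the 53BP1 fold was 16.99 on an S5p region of fold 89.6, and at chr20:2853618-2854493 it was 15.1 on an S5p region of fold 83.5 and only 1715 bp wide. The other S5p region among the 5, chr20:21282571-21285540 with a fold of 84.5, held a 53BP1 region of fold 8.51.

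The strongest elongation regions were wide and differed in their 53BP1 content. The largest S2p fold on the long arm was 128, at chr20:62301805-62340904, where 8 53BP1 regions were met. They all met the S5p region chr20:62306410-62341043, of fold 42.6, which held more 53BP1 regions than any other S5p region of chromosome 20. It also carried the widest 53BP1 region of the chromosome, of 3647 bp at chr20:62325431-62329077 with a 53BP1 fold of 10.00. The next S2p region of the long arm, chr20:33857889-33875037 with an S2p fold of 104, met 3 53BP1 regions. The other S2p regions among the 5 strongest of the long arm met 3 of the 5 strongest 53BP1 regions of that arm, those with 53BP1 folds of 31.0, 25.6 and 24.1.

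On the short arm, strong S2p occurred without 53BP1. The largest S2p fold was 70.6, at chr20:17584867-17639186, a region of 54320 bp that met 0 53BP1 regions and S5p with a fold of at most 19.6. The next, chr20:17906672-17951024 with an S2p fold of 57.3, met 1 53BP1 region of fold 10.9 on an S5p region of fold 77.1. The S2p region chr20:4675810-4688207, of fold 51.9, met 0 53BP1 regions and an S5p region of fold 23.0. chr20:2626748-2642560, of fold 51.6, met 3 53BP1 regions, and chr20:25226054-25291538, of fold 50.4, met 1. The last of these was the widest S2p region of the short arm at 65485 bp, and it met the widest S5p region of that arm, chr20:25226822-25285266, of 58445 bp and fold 54.6.

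The widest S5p region of chromosome 20 was chr20:56226860-56286612 on the long arm, of 59753 bp with a fold of 37.4. It met 5 S2p regions and a single 53BP1 region, of fold 6.42. The widest S2p region of the long arm, chr20:30121029-30168228, spanned 47200 bp with a fold of 56.2 and met 3 S5p regions and 2 53BP1 regions. Great width in a polymerase region was therefore found with few 53BP1 regions as well as with many.

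The exceptions to the overlap of 53BP1 and S5p were narrow and mostly weak. Of the 11 53BP1 regions that met no S5p region, 5 were on the long arm and 6 on the short arm, and their widths ran between 228 and 462 bp. The 5 of largest fold were chr20:62466344-62466642 at 7.55, chr20:30085494-30085943 and chr20:59827140-59827412 at 6.80 each, chr20:13201955-13202315 at 4.91 and chr20:46414159-46414454 at 4.76. None of these 5 met S2p either. Conversely, the strongest S5p region of the long arm with no 53BP1 was chr20:62203705-62206015, with an S5p fold of 41.3 and no S2p, and that of the short arm was chr20:21106212-21107137, with an S5p fold of 28.5 and no S2p. Both were singled out after their values were seen.

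53BP1 was spread over most of the chromosome. Among 61 windows of 1 Mb, 53BP1 was found in 49 of the 56 that were not empty of all marks. The window of 62 to 63 Mb, next to the end of the long arm, had 28 53BP1 regions with 68 S5p and 48 S2p regions. It was followed by 3 to 4 Mb on the short arm with 16, by 30 to 31 Mb and 60 to 61 Mb with 14 each, and by 34 to 35 Mb with 12. These 5 windows held 84 of the 312 53BP1 regions, or 26.9%. The 5 windows fullest in S5p held 21.9% of the S5p regions, and those fullest in S2p held 25.9% of the S2p regions. Across the 56 windows the rank correlation of the 53BP1 count was 0.846 with the S5p count and 0.853 with the S2p count. It was 0.914 with the count of S5p regions in the strongest 20% of the list. The counts share the length and gene content of the window, so the correlations are descriptive.

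Windows also differed in 53BP1 relative to their polymerase. The window of 33 to 34 Mb had the most S5p and the most S2p, with 105 regions of each, and 11 of 53BP1, fewer than the 5 windows above and more than the median of 5 per window. The window of 31 to 32 Mb, beside one of the most crowded, had 31 S5p and 28 S2p regions and 0 of 53BP1, against medians of 32.5 S5p and 27.5 S2p regions per window, and its strongest S5p fold was 28.5. The window of 59 to 60 Mb had 43 S5p and 31 S2p regions and 1 53BP1 region, which was away from S5p. These windows were also picked after their values were seen. In the window of 31 to 32 Mb 3 S5p regions were in the strongest 20% of the list, and in that of 59 to 60 Mb there were 2, against 18 in the window of 62 to 63 Mb.

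**Figure D5:**
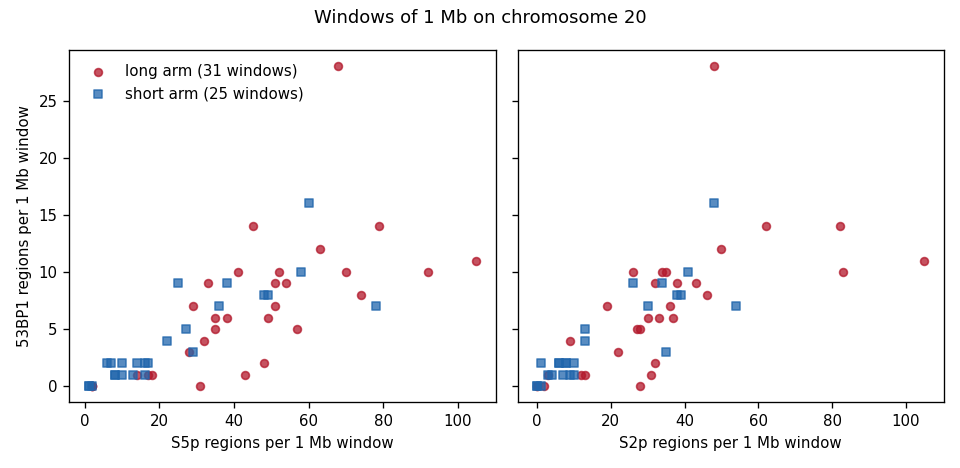
Number of 53BP1 regions (vertical axis) against the number of S5p regions (left panel) or S2p regions (right panel) in each of 56 windows of 1 Mb on chromosome 20, with circles for the long arm and squares for the short arm. The point with 28 53BP1 regions is the window next to the end of the long arm, and the long-arm point with 31 S5p and 28 S2p regions but 0 53BP1 is the window of 31 to 32 Mb.

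Serine 2 polymerase on chromosome 20 was more often accompanied by serine 5 polymerase than elsewhere. Of 1490 S2p regions, 940 met S5p, or 63.1% (interval 60.6 to 65.5), against 54.8% on the other autosomes. Only chromosome 19, at 63.8%, was higher, and the lowest was chromosome 18 at 48.6%. The share was 62.4% on the long arm (interval 59.4 to 65.4) and 64.6% on the short arm (interval 60.0 to 69.1), both above the other autosomes. At like S2p width chromosome 20 was 6.86 percentage points above the other autosomes, the highest of the 22, and the others ran between -5.01, on chromosome 18, and 4.74, on chromosome 19. The long arm was 5.73 points above and the short arm 9.53. Chromosome 20 also had the most S5p regions per S2p region, 1.31 against 1.14 on the other autosomes. The part of that higher S5p count in the share of S2p regions with S5p was not tested. The like-width difference in this share was not run under the alternative settings.

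The share was above that of the other autosomes in every class of S2p width. It was 38.0% on chromosome 20 and 31.5% on the other autosomes below 500 bp, and 45.7% against 40.2% between 500 bp and 1 kb. Between 1 and 2 kb it was 60.9% on chromosome 20 (interval 55.4 to 66.3) and 53.7% on the other autosomes, and between 2 and 5 kb it was 82.0% (interval 76.7 to 86.5) against 71.2%. In each of these 4 classes chromosome 20 had the highest share of the 22 autosomes. Between 5 and 10 kb it was 96.6% on chromosome 20, the second highest, and 88.7% on the other autosomes. At 10000 bp or more all 107 S2p regions of chromosome 20 met S5p, against 98.4% on the other autosomes. The 550 S2p regions of chromosome 20 without S5p were narrow, with a median of 699.5 bp, against 1872 bp for the 940 with it.

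The reverse share was ordinary. S5p regions met S2p in 60.8% of cases on chromosome 20 (1189 of 1957, interval 58.6 to 62.9), against 60.3% on the other autosomes, the 9th highest of 22. At like S5p width the difference was -0.932 percentage points, well inside the range of -6.05 to 9.10 over the other autosomes. The share differed along the chromosome. In the stretch of 40 to 50 Mb the S2p share of S5p regions was 47.8%, or -12.2 points at like width, whereas it was 66.3% or 5.07 points above in 30 to 40 Mb and 78.0% or 10.7 points above beyond 60 Mb. Without the stretch of 40 to 50 Mb the chromosome 20 difference was 2.03 points, and without that of 30 to 40 Mb it was -3.40, so its sign rested on which stretches were included. The stretch beyond 60 Mb had the highest S2p share of the 7 stretches, and its 53BP1 share was 15.9% (26 of 164, interval 10.6 to 22.4).

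In combination, 211 S5p regions of chromosome 20 (10.8%, interval 9.44 to 12.2) met both 53BP1 and S2p, against 12.4% on the other autosomes. A further 41 met 53BP1 without S2p (2.10%), against 2.89% on the other autosomes. S2p without 53BP1 was met by 978 (50.0%, interval 47.7 to 52.2), against 48.0% on the other autosomes, and 727 (37.1%) met neither, against 36.8%. The S5p regions with 53BP1 and S2p were wide, with a median of 4270 bp on chromosome 20 and 3146 bp on the other autosomes. Their median S5p fold was 37.1 on chromosome 20 and 33.7 on the other autosomes, whereas S5p regions with S2p but no 53BP1 had a median fold of 3.60 on chromosome 20 and 3.54 on the other autosomes.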

How the data were processed

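The authors deposited 1 list of enriched regions for each of 53BP1, S5p and S2p in MCF10A cells, with positions in hg19. Per the submitters' processing notes, base calls went through bcl2fastq 2.20.0.422. For the aligner, peak caller, control and depth, nothing is given in the sources used here. Each deposited region has a fold enrichment (a ratio), its p-value and q-value as −log10, a score that is 10 times the −log10 q-value within 1, and a summit offset in bases. Lists from a single library rank regions within a list only.

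From these, 1, 2 and 1 rows outside chromosomes 1 to 22 and X were left out. Overlap meant at least 1 bp. Differences at like width reweighted the other autosomes to 6 width classes, and those at like fold to 20 equal classes. The scripts were tested on simulated data. The regions named were the 5 of largest fold per list and arm, the widest, 53BP1 regions off S5p, the 5 fullest windows and the longest gaps. Chromosome 20 and these comparisons were chosen with earlier results of these data known. Naming of genes and epithelial markers, planned for an hg19 annotation, was not carried out, and RefSeq (GRCh38.p14) served only to count genes per chromosome. As alternatives, a −log10 q-value limit of 5 was set, and other overlap rules, other classes and matching, and the removal of chromosomes or stretches were tried. Software was Python 3.11.15 with scipy 1.17.1, numpy 2.4.6, matplotlib 3.10.9 and pandas 2.3.3.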

Additional observations from a re-analysis of the deposited data

How the results depend on the processing

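Of 83 alternatives, 62 left the value within its interval or the spread over autosomes, 20 moved it further and 1 turned the direction of a difference whose interval left out 0. The interval of a difference in share carried the counting error of chromosome 20 or the long arm only, with the reweighted set taken as exact. For the arms it is too narrow, since the short arm has counting error of its own, so leaving out 0 does not settle that difference. The sign of the 2 like-width S2p differences, which are close to 0, changed under 9 alternatives, 3 for chromosome 20 and 6 for the arms, so neither has a settled direction. With a −log10 q-value of 5 or more, 16.9% of S5p regions met 53BP1, 53.3% met S2p, 67.9% of S2p regions met S5p and 98.6% of 53BP1 regions met S5p, and the like-width S2p difference was -3.33 points between chromosome 20 and the other autosomes and 2.19 between the long and the short arm. With 50% of the region covered, the shares with 53BP1 and S2p were 1.07% and 51.4% of S5p regions, that of S2p regions with S5p 50.1%, the 53BP1 difference -0.438 and the arm difference in 53BP1 turned to 0.200. Only 21 of 1957 S5p regions of chromosome 20 had 53BP1 under that rule, so both 53BP1 differences rest on few regions. The difference of -0.438 was between 1.07% on chromosome 20 and 1.51% on the other autosomes at like width. With the summit inside, 58.4% of S5p regions met S2p, and the unmatched 53BP1 share of chromosome 20 was the second lowest of the autosomes. Matching fold gave 53BP1 differences of -1.81 for chromosome 20 and -0.929 for the arms, and matching fold and width -1.59 and -0.00945. Stretches of 10 Mb and matching within the arms were chosen after seeing the data. Leaving out 30 to 40 Mb gave S2p differences of -3.40 for chromosome 20 and -5.03 for the arms, leaving out 40 to 50 Mb 2.03 and 4.28, and leaving out 0 to 10 Mb 2.68 for the arms. The causes were not tested. The like-width 53BP1 share of chromosome 20 was the lowest of the autosomes compared under all alternatives run except the 50% cover, where it was the 4th lowest. No paired analysis was possible because a single library represented each antibody, and unknown depth limits every share.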
